A study of Mus musculus with 8 samples.

Results

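The genes described here encode 9 enzymes that put fatty acyl chains back onto lysophospholipids, together with cardiolipin synthase. Of the 9, Lclat1 and Taz remodel cardiolipin, the product of that synthase. They are Mboat1, Mboat2, Mboat7, Lpcat1, Lpcat2, Lpcat3, Lpcat4, Lclat1, Taz and Crls1, 10 of the 38293 gene identifiers in the count table, and were taken by symbol from GENCODE M21. Taz here is tafazzin (ENSMUSG00000009995), not the transcriptional coactivator that shares this alias. All 10 were among the 13336 genes with enough counts to be tested. The group was chosen by gene name after the difference of Mboat2 between genotypes had been seen in these same hearts, where it ranked 9 of 13336 by p. The differences between genotypes are therefore given as a description and support nothing.

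RNA came from left ventricles of untreated male C57BL/6 mice, 8 weeks old, with 1 library per heart. There were 4 wild-type (WT) hearts, numbered 1 to 4, and 4 hearts of the genotype mORF4-NBDY_KO (KO), numbered 5 to 8. The microprotein made from Nbdy (mORF4) interacts with the machinery that decaps mRNA. The labels give neither the KO allele nor whether littermates were used, so litter or colony cannot be told apart from genotype. The p-values for genotype set the difference between the groups against the spread of hearts within them. That spread is estimated with values shared across genes, so it is not that of each gene alone.

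Glycerophospholipids are made with one set of acyl chains and then edited: a phospholipase A removes a chain, and a lysophospholipid acyltransferase attaches another from acyl-CoA. This deacylation and reacylation, known as the Lands cycle, sets how saturated a membrane is. The acyltransferases fall into a multipass family named MBOAT (membrane-bound O-acyltransferases, here Mboat1, Mboat2, Mboat7 and Lpcat3) and a family related to AGPAT (acylglycerolphosphate acyltransferases, here Lpcat1, Lpcat2, Lpcat4, Lclat1 and Taz). Cardiolipin is the phospholipid of the inner mitochondrial membrane; in heart it is rich in linoleoyl chains, and loss of tafazzin in people causes the cardiomyopathy of Barth syndrome.

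Total counts ran from 11101901 to 14699949 per library. Nbdy, the targeted gene, held 241, 208, 246 and 248 counts in WT hearts 1 to 4 and 137, 135, 133 and 115 in KO hearts 5 to 8, so the libraries followed their labels while transcript remained in KO. Cardiomyocyte markers summed to between 53510 and 65530 CPM (counts scaled to the TMM-adjusted library size) over all 8 hearts, and the lung markers, a check on the source tissue, to at most 0.321 CPM with Sftpa1 at 0 counts. WT heart 1 had 29.2% of its counts in mitochondrially encoded genes against 19.4% to 26.7% in the other hearts.

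Only the promoters of Mboat2, Mboat7 and Crls1 are printed, because these are the members whose 4 KO hearts did not overlap the 4 WT hearts. They were thus picked on the same contrast of genotypes. Each sequence is the 250 bases before the start that RefSeq gives (GRCm38.p6), 5′ to 3′ on the gene's strand. The windows are at chr12:24831349-24831598 (plus strand), chr7:3692987-3693236 (minus strand) and chr2:132846416-132846665 (plus strand). Those of Mboat2 and Mboat7 lie inside the GENCODE M21 bounds of their genes, downstream of the outermost start. RefSeq gives Crls1 a second start, and the window before it (chr2:132847484-132847733) is not printed; it held 3 CG dinucleotides, 1 TGACG and no CACGTG. Capitals mark matches on either strand to the motifs searched: CCAAT (a box bound by NF-Y), GGGCGG (the GC box), TATAAA (the core promoter box), CACGTG (an E-box), GCGCATG (part of the NRF1 site) and TGACG (part of the cAMP response element). In these windows no match overlapped one of a different motif.
Mboat2: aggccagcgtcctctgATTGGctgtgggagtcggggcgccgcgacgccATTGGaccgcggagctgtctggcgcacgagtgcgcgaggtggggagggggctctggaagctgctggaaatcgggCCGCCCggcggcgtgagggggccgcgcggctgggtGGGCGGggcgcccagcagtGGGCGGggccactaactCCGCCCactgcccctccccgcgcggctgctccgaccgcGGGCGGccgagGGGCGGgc
Mboat7: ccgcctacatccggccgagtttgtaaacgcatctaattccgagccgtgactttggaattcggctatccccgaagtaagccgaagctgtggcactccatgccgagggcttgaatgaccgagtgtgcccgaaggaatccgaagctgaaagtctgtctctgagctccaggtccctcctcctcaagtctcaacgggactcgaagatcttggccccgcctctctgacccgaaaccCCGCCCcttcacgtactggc
Crls1: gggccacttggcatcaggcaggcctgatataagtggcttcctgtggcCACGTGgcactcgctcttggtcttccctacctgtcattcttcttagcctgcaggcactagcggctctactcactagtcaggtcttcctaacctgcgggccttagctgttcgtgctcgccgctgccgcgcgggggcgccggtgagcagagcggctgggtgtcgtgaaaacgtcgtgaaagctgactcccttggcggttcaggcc

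The Mboat2 window held 6 GC boxes, 2 CCAAT boxes and 33 CG dinucleotides. Over 32851 RefSeq windows of the same length, 32.7% held at least 1 GC box and 33.8% a CCAAT box, and the median was 6 CG dinucleotides. The Mboat7 window held 1 GC box and 19 CG dinucleotides, and the Crls1 window 1 CACGTG, found in 6.02% of windows, and 17 CG dinucleotides. No motif was found in all 3 sequences. The GC box was in the first window of 9 of the 10 members, all but Crls1. Among the other members, the window of Lpcat3 held 5 GC boxes and 3 CCAAT boxes. TATAAA occurred in the window of Lpcat2 and in no other member's first window, against 12.4% of all windows. These matches describe the letters and say nothing about binding.

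Per exon length, the family spanned a wide range of levels in WT left ventricle. RPKM, reads per kilobase of merged exons scaled to library size, allows different genes to be compared. The cardiolipin enzymes stood at the top. Lclat1, which reacylates lysocardiolipin at the endoplasmic reticulum and its contacts with mitochondria, reached 17.1 ± 1.90 RPKM (SD, n = 4), a level above 84.6% of tested genes. Crls1 followed at 12.4 ± 1.10, Taz at 10.3 ± 1.45 and Lpcat3 at 8.15 ± 1.51 RPKM (SD, n = 4 each).

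Lpcat1 was intermediate in WT, at 3.33 ± 0.467 RPKM. Lpcat4 (1.77 ± 0.346) and Mboat7 (1.6 ± 0.232) came next, and Mboat2 (0.746 ± 0.180), Lpcat2 (0.611 ± 0.242) and Mboat1 (0.460 ± 0.145) were lowest (RPKM, SD, n = 4 each). The level of Mboat1 lay above only 8.73% of tested genes. Neighbours whose WT ranges overlapped were Crls1 with Taz, Taz with Lpcat3, Lpcat4 with Mboat7, Mboat2 with Lpcat2, and Lpcat2 with Mboat1. Lclat1 with Crls1, Lpcat3 with Lpcat1, Lpcat1 with Lpcat4, and Mboat7 with Mboat2 did not overlap. With the length of the longest transcript in place of merged exons, 5 of 10 ranks were the same, and Taz came first at 19.0 RPKM before Lclat1 at 18.7.

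**Figure D1:**
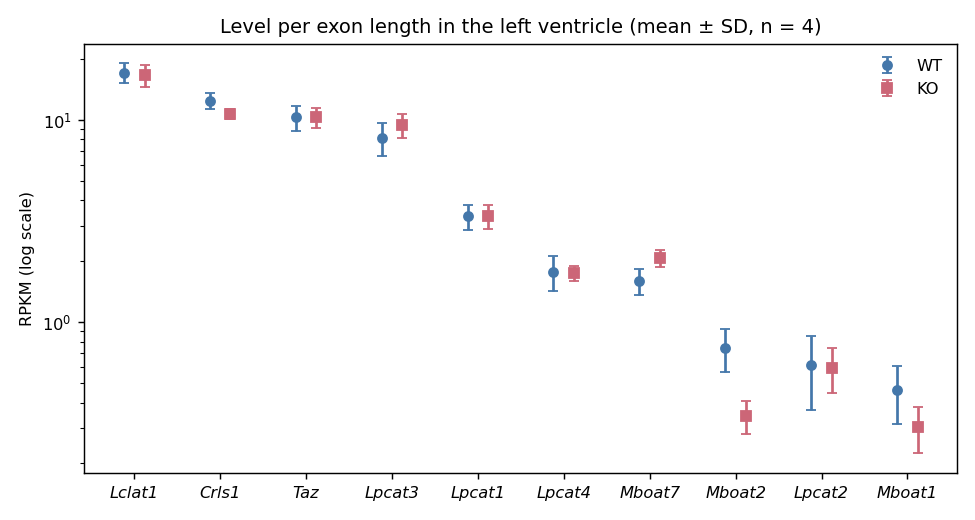
Level of each gene per exon length in WT (circles) and KO (squares) hearts, as mean RPKM with SD (n = 4 each) on a log axis, ordered by the WT level. Lclat1 is highest at 17.1 RPKM in WT and Mboat1 lowest at 0.460; the symbols of Mboat2 stand farthest apart, at 0.746 and 0.344 RPKM.

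The summed level of the 10 genes overlapped between genotypes. It was 57.3, 52.3, 56.7 and 59.2 RPKM in WT hearts 1 to 4 and 60.1, 55.2, 53.2 and 53.2 RPKM in KO hearts 5 to 8. Lclat1 alone took 27.3% to 34.2% of that sum across the 8 hearts. Mboat2 took 1.07% to 1.67% in WT and 0.536% to 0.793% in KO. These shares rest on merged exon length. With longest-transcript lengths Taz came before Lclat1 in WT, at 19.0 and 18.7 RPKM.

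In the fit over all genes, none of the 10 members passed an adjusted p of 0.05 (edgeR's quasi-likelihood test with Benjamini-Hochberg adjustment), where 0.0225% of the genes tested did. At an unadjusted p under 0.05 there were 2 members, Mboat2 and Mboat7, beside 6.40% of genes tested. DESeq2 called 1 member, Mboat2, beside 0.0825% of genes; limma-voom called 0. Groups did not overlap in 2 members with KO below (Mboat2 and Crls1), beside 1.98% of genes tested, and in 1 member with KO above (Mboat7), beside 2.14%. The median log2 fold change was -0.02 over the 10 members and -0.0032 over all genes tested. Since the group was chosen on this contrast, nothing is read from these counts.

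**Figure D2:**
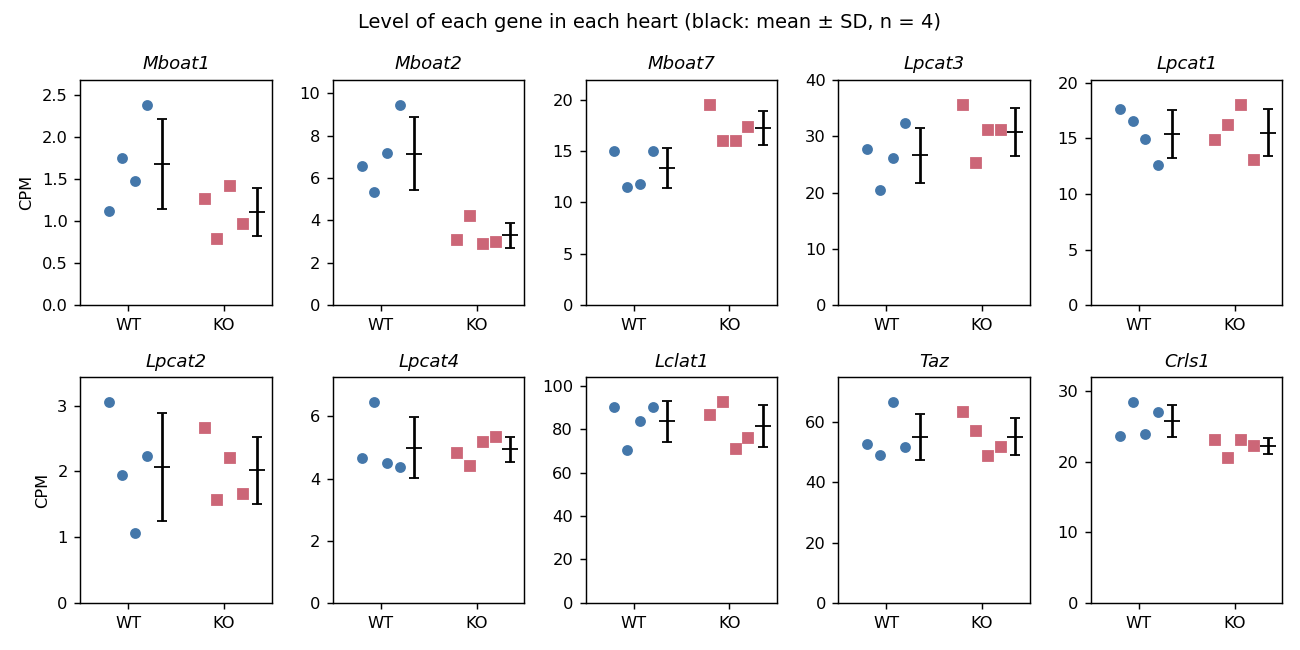
CPM of each gene in each of the 4 WT (circles) and 4 KO (squares) hearts, with the mean and SD in black; each panel has its own axis from 0. The KO hearts lie below all WT hearts for Mboat2 and Crls1, above them for Mboat7, and overlap them in the other 7 panels.

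Mboat2, an acyltransferase that prefers monounsaturated oleoyl chains and acts on lysophosphatidylethanolamine among other acceptors, had the largest difference of the family. The gene (ENSMUSG00000020646) lies on chromosome 12 from 24830879 to 24964397 (GRCm38, plus strand, protein-coding). It shares 107 exonic bases with 2900060N12Rik, a gene on the opposite strand that is not in the count table. Without the strand setting of the authors' counting, reads in those bases cannot be assigned. Mboat2 held 82, 58, 88 and 123 counts in WT hearts 1 to 4 and 44, 59, 37 and 34 counts in KO hearts 5 to 8. In CPM this was 6.58, 5.35, 7.19 and 9.45 in WT and 3.08, 4.19, 2.90 and 2.98 in KO. Every KO heart stood below every WT heart, with WT heart 4 highest and KO heart 6 the highest of the KO group. The means were 7.14 ± 1.72 and 3.29 ± 0.605 CPM (SD, n = 4 each), a KO level 0.461 of WT with a 95% interval from 0.329 to 0.646.

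On the log2 scale Mboat2 differed by -1.12 ± 0.23 (SE). Its adjusted p was 0.408 by edgeR and 0.0123 by DESeq2. It ran from -1.26 (without KO heart 6) to -0.96 (without WT heart 4) over 15 alternative fits (-1.16 without WT heart 1, the library richest in mitochondrial transcripts), and the edgeR and limma-voom fits gave adjusted p between 0.111 and 0.847. In bulk tissue, fewer cells of a type that holds Mboat2 and less Mboat2 RNA per cell cannot be told apart. Of 10 lists of cell type markers, none had sums that separated the genotypes: fibroblast markers summed to 978 to 1244 CPM in WT and 802.2 to 1028 in KO, and atrial markers to 264.4 to 481.0 in WT and 456.9 to 713.1 in KO. None of the markers tested passed in edgeR, where 0.0225% of all genes tested did. At that share few calls are likely in lists this short. No adipocyte or lung marker had enough counts to be tested, and only 1 of 5 lymphocyte and 2 of 4 atrial markers did. The part of cell types in the Mboat2 values was not tested.

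Mboat1, the closest relative of Mboat2 in the family, acts on lysophosphatidylserine and lysophosphatidylethanolamine. It lies on chromosome 13 (30136489 to 30246717) and was close to the lower limit of measurement, with 14, 19, 18 and 31 counts in WT and 18, 11, 18 and 11 counts in KO. These are 1.12, 1.75, 1.47 and 2.38 CPM in WT and 1.26, 0.781, 1.41 and 0.963 CPM in KO. The groups overlapped, although all 4 KO hearts stood below the WT mean of 1.68 CPM. The log2 fold change of -0.60 ± 0.35 (SE) had a 95% interval from -1.35 to 0.144, so at this depth neither no difference nor one as large as that of Mboat2 was outside it. No run of 50 bases in the longest transcript of Mboat1 or Mboat2 occurred in a transcript of another gene, so such a run tells these relatives apart.

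Mboat7, which puts arachidonoyl chains onto lysophosphatidylinositol, lay the other way. It is on chromosome 7 (3677789 to 3693523, minus strand). Its levels were 15.0, 11.5, 11.8 and 15.0 CPM in WT and 19.5, 16.0, 16.0 and 17.3 CPM in KO. All KO hearts stood above all WT hearts, and the nearest values, 15.0 and 16.0 CPM, were close together. The means were 13.3 ± 1.94 and 17.2 ± 1.66 CPM (SD, n = 4 each), a KO level 1.29 times WT (95% interval 1.05 to 1.59). On the log2 scale this is 0.37 ± 0.14 (SE), and edgeR's adjusted p was 0.734. Mboat7 shares 277 exonic bases with Tsen34 on the opposite strand, a subunit gene of the tRNA splicing endonuclease. The log2 fold change of Tsen34 was 0.18 ± 0.14. Without the strand setting of the authors' counting, reads in those bases cannot be assigned. No run of 50 bases in the longest Mboat7 transcript occurred in a transcript of another gene.

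Set against each other within a heart, the 2 genes gave ratios of Mboat7 to Mboat2 counts of 2.28, 2.16, 1.64 and 1.59 in WT hearts 1 to 4 and 6.34, 3.83, 5.51 and 5.82 in KO hearts 5 to 8. This ratio needs no library scaling, and its groups did not overlap. It restates the values that chose the family.

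Lpcat3, the MBOAT enzyme that loads polyunsaturated chains into phosphatidylcholine and phosphatidylethanolamine and a known target of liver X receptors, is on chromosome 6 (124663027 to 124704418). Its levels were 27.7, 20.4, 26.1 and 32.3 CPM in WT and 35.6, 25.3, 31.1 and 31.1 CPM in KO. The groups overlapped, with KO heart 5 highest and WT heart 2 lowest. The log2 fold change was 0.21 ± 0.15 (SE; 95% interval -0.119 to 0.533) and ran from 0.099 without WT heart 2 to 0.31 without WT heart 4. Lpcat3 shares 334 exonic bases with Emg1 on the opposite strand, and 10.2% of the 50-base runs of its longest transcript occur in Emg1; the log2 fold change of Emg1 was -0.18 ± 0.10.

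Among the AGPAT-related enzymes, Lpcat1, which makes the saturated phosphatidylcholine of lung surfactant, is on chromosome 13 (73467197 to 73516422). It stood at 17.6, 16.5, 14.9 and 12.6 CPM in WT and 14.8, 16.2, 18.0 and 13.0 CPM in KO. The ranges were nearly the same, and the 95% interval of the KO to WT ratio was 0.808 to 1.25.

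Lpcat2, which also makes platelet-activating factor and is known from inflammatory cells, is on chromosome 8 (92855339 to 92919279). It shares 287 exonic bases with Gm45472, a gene on the opposite strand that is not in the count table. In that gene occur 8.62% of the 50-base runs of the longest Lpcat2 transcript, and reads there cannot be assigned without the strand setting. Lpcat2 had 38, 21, 13 and 29 counts in WT and 38, 22, 28 and 19 counts in KO. Values ran from 1.06 to 3.05 CPM in WT and from 1.56 to 2.66 CPM in KO, so the KO hearts lay inside the WT range. The interval of the ratio, 0.587 to 1.63, was the widest of these 5 enzymes. Macrophage markers summed to 169.8 to 256.2 CPM in WT and 180.9 to 265.9 CPM in KO.

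Lpcat4, an acyltransferase for lysophosphatidylethanolamine and lysophosphatidylcholine, is on chromosome 2 (112239468 to 112247111). Its levels were 4.66, 6.45, 4.49 and 4.38 CPM in WT and 4.83, 4.40, 5.18 and 5.34 CPM in KO. WT heart 2 stood apart from the other WT hearts, which lay at the low end of the KO range or, for WT heart 4, just below it. The ratio of KO to WT was 0.990, with a 95% interval from 0.736 to 1.33.

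The 3 cardiolipin genes, Lclat1, Taz and Crls1, had the narrowest intervals of the family. Lclat1, on chromosome 17 (73107985 to 73243368), stood at 90.1, 70.4, 83.6 and 90.2 CPM in WT and 86.4, 92.3, 71.0 and 75.9 CPM in KO. The ratio was 0.974 with an interval from 0.812 to 1.17. Taz, the mitochondrial transacylase that moves linoleoyl chains from phosphatidylcholine to cardiolipin, is on chromosome X (74281912 to 74290151). Its levels were 52.8, 49.1, 66.4 and 51.6 CPM in WT and 63.1, 56.8, 48.8 and 51.8 CPM in KO. The interval of its KO to WT ratio was 0.832 to 1.21. For both genes the groups overlapped almost fully, and a 1.5-fold difference in either direction lay outside the intervals.

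Crls1, which joins phosphatidylglycerol and CDP-diacylglycerol into new cardiolipin, is on chromosome 2 (132846666 to 132866785). It stood at 23.7, 28.4, 24.0 and 27.0 CPM in WT and 23.1, 20.6, 23.1 and 22.2 CPM in KO. The groups did not overlap, but the highest KO value of 23.1 CPM was close to the lowest WT value of 23.7 CPM. The means were 25.8 ± 2.29 and 22.3 ± 1.16 CPM (SD, n = 4 each). The log2 fold change of -0.21 ± 0.11 (SE) had a 95% interval from -0.45 to 0.032 and an edgeR adjusted p of 0.783.

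**Figure D3:**
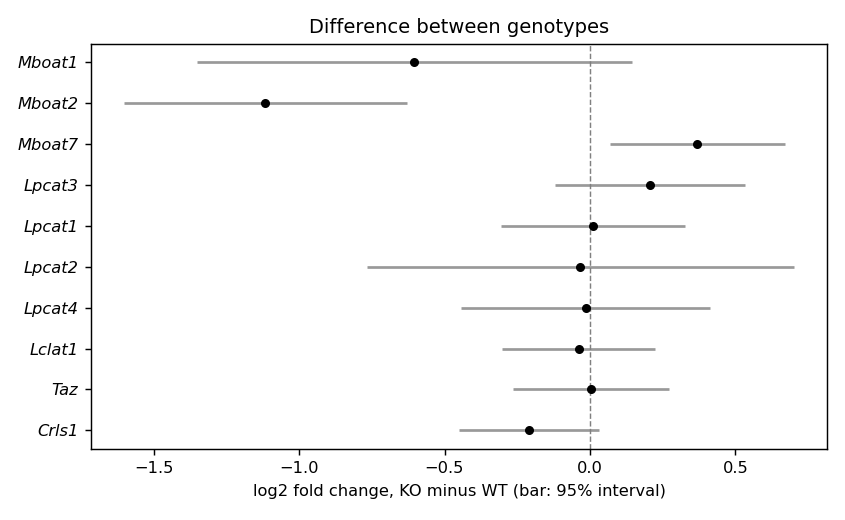
Log2 fold change of each gene, KO minus WT, from the edgeR fit, with its 95% interval. Mboat2 lies at -1.12 and Mboat7 at 0.37 with intervals that leave out 0; the intervals of the other 8 genes include it, and those of Mboat1 and Lpcat2 are the widest.

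Lpcat2 and Mboat1, the members with the fewest counts, varied most between hearts of the same genotype, in WT and in KO. The within-group coefficient of variation ran from 5.23% (Crls1 in KO) to 39.7% (Lpcat2 in WT). At the mean count over all 8 hearts, counting error alone would give 23.9% for Mboat1, 19.6% for Lpcat2 and 12.3% for Mboat2, against 3.09% for Lclat1. The observed value was above this figure for 10 of 10 members in WT and 8 of 10 in KO. The figure is not specific to a genotype, and counting error is larger in the group with fewer counts. Mboat1 in KO, at 25.8% with 11 to 18 counts, was only just above it.

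Members were also compared across the 8 hearts after the mean of each genotype had been removed from log2 CPM, so that the difference that chose them does not enter. Of 45 pairs, 25 had a positive Pearson correlation and 5 an unadjusted p under 0.05 by an exact permutation within genotypes (two-sided, 576 arrangements). After Benjamini-Hochberg adjustment 0 passed, by Pearson's r or by Spearman's rho. The largest Pearson correlation in size was that of Lpcat4 with Lclat1 (r = -0.87, exact permutation p = 0.0156, adjusted p = 0.352; rho = -0.881, exact permutation p = 0.0122, adjusted p = 0.208), and r was -0.791 without WT heart 2 and KO heart 8. Mboat2 with Lpcat4 came next by r and had the largest rho and the smallest p by both measures (r = -0.842, exact permutation p = 0.00521, adjusted p = 0.234; rho = -0.952, exact permutation p = 0.00347, adjusted p = 0.156), with r of -0.848 without WT heart 4 and KO heart 7. The hearts left out were the farthest from the median log2 CPM of the pair's first gene, before genotype means were removed. They need not be the farthest on the scale of r. All members of a pair share the library and its scaling.

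Mboat2 was compared with the 12926 other genes that averaged at least 1 CPM and had counts in every heart. The 5 whose levels followed it most closely on the same scale over the 8 hearts were Rtn4rl1 (r = 0.977), Slc19a1 (0.957), Npepps (0.957), Bak1 (0.953) and Ogfod1 (0.953). They were picked as the highest of 12926 values, so these are a description. WT heart 4 and KO heart 7 were the farthest from the median log2 CPM of Mboat2 before genotype means were removed. Without these hearts, r lay between 0.924 and 0.967. KO heart 6, the highest of the KO group for Mboat2, stayed in, so the hearts farthest on the scale of r were not all left out. The log2 fold changes of the 5 genes between genotypes were -0.50, -0.28, 8.61e-04, 0.03 and 0.02, against -1.12 for Mboat2. The genotype means had been removed before r was computed.

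The rest of phospholipid metabolism was read from 8 lists, with 84 genes tested of 91 listed. None of the 84 passed in edgeR in either direction, where 0.0225% of all genes tested did. DESeq2 called 0 of them, beside 0.0825% of all genes, and limma-voom 0. At such shares few calls are likely in any list of this size, so the lack of calls in the single lists below says little. An unadjusted p under 0.05 was found for 7 of the 84, where 6.40% of all genes tested had one. There were 40 positive and 44 negative log2 fold changes with a median of -0.02. Groups did not overlap in 1 of the 84 genes with KO above, where 2.14% of all genes tested did so, and in 1 with KO below, where 1.98% did. Both are in the list of glycerol-3-phosphate and lysophosphatidic acid acyltransferases, the enzymes that attach the first chains during synthesis (9 tested, 6 positive, median 0.089).

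Gpam, the mitochondrial enzyme that starts glycerolipid synthesis, averaged 14.2 ± 2.91 CPM over WT hearts and 23.1 ± 4.78 CPM over KO hearts (SD, n = 4 per group). Its log2 fold change was 0.70 ± 0.18, at an edgeR adjusted p of 0.652. Agpat5, a mitochondrial lysophosphatidic acid acyltransferase, stood at 28.2 ± 5.61 and 21.3 ± 1.36 CPM (log2 fold change -0.40 ± 0.14; edgeR adjusted p = 0.725). Lpgat1, a lysophosphatidylglycerol acyltransferase, had a value of -0.19 ± 0.11, and Agpat3, the most abundant of the list at 188 CPM in WT, 0.05 ± 0.12.

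The 17 tested genes of cardiolipin synthesis, transport and binding had 5 positive and 12 negative values (median -0.07), and none passed. Ptpmt1, the phosphatase that makes phosphatidylglycerol upstream of Crls1, averaged 33.6 ± 4.79 CPM over WT hearts and 26.8 ± 2.76 CPM over KO hearts (SD, n = 4 per group), a log2 fold change of -0.33 ± 0.13. Prelid3b, a lipid transfer protein of the PRELI family, had a value of -0.24 ± 0.10, the cristae protein gene Apool -0.21 ± 0.11, and Hadha, which has also been described as a monolysocardiolipin acyltransferase, 0.28 ± 0.17. The 4 genes are shown for a small p or a high level. Their groups overlapped, as did those of all 17 genes. Groups did not overlap in 1.98% of all genes tested with KO below and in 2.14% with KO above.

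The phospholipases A and lysophospholipases, which supply the lysophospholipids, had 8 positive and 9 negative values among 17 tested genes (median -0.05). The lysophospholipase gene Lypla1 stood at -0.27 ± 0.11, Abhd4 at 0.25 ± 0.12, Lypla2 at 0.29 ± 0.17 and the abundant Pla2g16 at -0.08 ± 0.13. Acyl-CoA synthetases and their binding protein, which supply the acyl donors, split 4 and 4 (median -0.01). Acsl4, which activates arachidonate, stood at -0.42 ± 0.20, the acyl-CoA binding protein gene Dbi at -0.25 ± 0.12, the fatty acid transporter gene Slc27a4 at 0.26 ± 0.13, and Acsl1, the main cardiac form, at 0.02 ± 0.13. None of these 8 genes passed.

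In choline and ethanolamine phospholipid synthesis, 13 tested genes had 8 positive and 5 negative values (median 0.04). Lpin1 stood at 0.18 ± 0.12, Selenoi at 0.20 ± 0.14, Chkb at 0.19 ± 0.14 and the cholinephosphotransferase gene Chpt1 at -0.15 ± 0.12. Phosphatidylinositol and phosphatidylserine synthesis had 3 positive and 3 negative values (median -0.0011), with Ptdss1 at -0.13 ± 0.10, Cds2 at 0.14 ± 0.11 and Cdipt at -0.13 ± 0.11. The list of other MBOAT genes, several of which encode enzymes that acylate sterols, diacylglycerol or proteins, had 2 positive and 3 negative values among 5 tested (median -0.05). Among them Soat1 stood at -0.43 ± 0.27, Dgat1 at 0.14 ± 0.12, Porcn at -0.09 ± 0.24 and Hhatl, the most abundant in this tissue, at 0.02 ± 0.13.

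Genes of the liver X receptors and their known targets, listed because Lpcat3 is such a target, had 4 positive and 5 negative values among 9 tested (median -0.05). The desaturase gene Scd2 averaged 19.4 ± 2.96 CPM over WT hearts and 14.3 ± 1.51 CPM over KO hearts (SD, n = 4 per group), a log2 fold change of -0.44 ± 0.14 at an edgeR adjusted p of 0.711. Mylip, a ubiquitin ligase for the LDL receptor, lay the other way at 0.42 ± 0.16, the receptor gene Nr1h2 at 0.22 ± 0.12 and Apoe at -0.05 ± 0.14. None of the 9 genes passed in edgeR, where 0.0225% of all genes tested did. Their groups overlapped, where 1.98% of all genes tested lay apart with KO below and 2.14% with KO above.

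**Figure D4:**
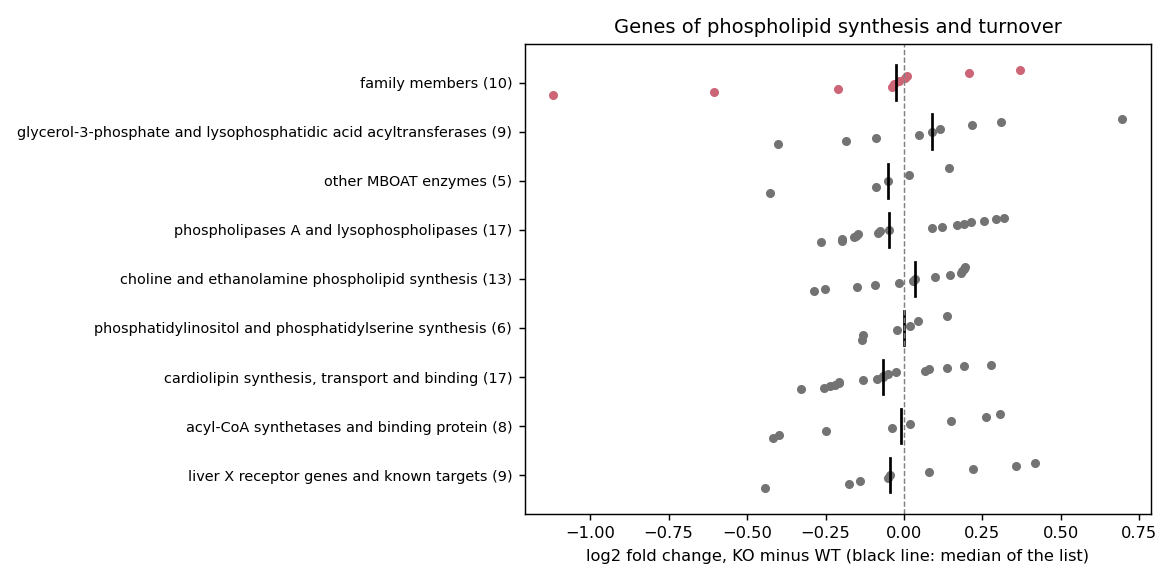
Log2 fold change, KO minus WT, of each tested gene of the family (top row) and of 8 lists of phospholipid genes, with the number tested in brackets and the median of each list as a black line. Mboat2 at -1.12 is the lowest point shown and Gpam at 0.70 the highest; the list medians lie between -0.07 and 0.09.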

How the data were processed

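Poly(A) RNA from 8 left ventricles was made into TruSeq stranded libraries, per the labels' protocols. The submitters' processing notes name STAR 2.7.1a and GRCm38 (mm10). How reads were counted, with which strand setting and annotation, is not given in the sources used here. What the authors deposited is a table of raw, unnormalized counts per Ensembl gene, with 1 column per heart.

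Columns were matched to samples by title. The filter was filterByExpr with a minimum count of 10 and the scaling TMM. Genotype was the only term of the edgeR 4.0.16 fit (R 4.3.3; glmQLFit, then a two-sided glmQLFTest). Benjamini-Hochberg adjustment ran over 13336 genes, with a threshold of 0.05. SE is the log2 fold change over the root of its F, and 95% intervals use the fit's t distribution. RPKM divides CPM by merged GENCODE M21 exon length. Promoters are RefSeq's, and all 10 members matched. The edgeR script was tested on simulated data for KO against WT (13189 genes, 200 changed). Of changes of 1.5-fold, 34.3% were recovered, of 2-fold 83.6% and of 4-fold 97.0%, and false calls numbered 6. The simulation used the trend of dispersion on level, without the scatter of single genes around it. With 200 planted changes the adjusted threshold is also easier to pass than in the hearts, where 3 genes were called. The rates test the script and are not the power in these hearts.

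Alternative settings were other scalings (DESeq2 size factors, library totals), other tests (DESeq2 1.42.0, voom in limma 3.58.1), other filters (none, or 1 CPM in 4 libraries), mitochondrially encoded genes taken out, and each heart left out. Members and lists were chosen with earlier results of these data known. From each list the text names the most abundant gene and the 3 with the smallest p.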

Additional observations from a re-analysis of the deposited data

Results flagged for a closer look

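In 2 of 20 groups of 4 hearts, the gap between 1 heart and its nearest neighbour took most of the group's range, above Dixon's 95% critical value; chance gives about 1 in 20. Mboat2 in KO heart 6 was 4.19 CPM, against 2.90 to 3.08 CPM in the other KO hearts. Lpcat4 in WT heart 2 was 6.45 CPM, against 4.38 to 4.66 CPM in the other WT hearts.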

How the results depend on the processing

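The count of genes called was 3 in the edgeR fit, 11 with DESeq2 and 10 with no filter, and ran from 2 to 6 with 1 heart left out (2 without KO heart 6, 5 without WT heart 1, 6 without WT heart 4). The count of family members called was 0 in edgeR, limma-voom and every fit with 1 heart left out, and 1 (Mboat2) with DESeq2; the cause was not tested. The log2 fold changes of Mboat1, Mboat2, Mboat7, Lpcat3 and Crls1 kept their sign in all 15 alternative fits, while those of Lpcat1, Lpcat2, Lpcat4, Lclat1 and Taz changed sign in 2 to 6 of them. No member moved by more than its within-group SD. With longest-transcript lengths 5 of 10 level ranks were the same, and with 1 WT heart left out 8 to 10. Library totals shifted the median of all genes to -0.05. No paired analysis was possible because the 2 groups share no replicate number. Mboat1 and Lpcat2 had 11 to 38 counts per heart. At their mean count over all 8 hearts, counting error alone gives a coefficient of variation of 23.9% and 19.6%. In WT, 31.6% and 39.7% were observed.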
